A study of Mus musculus with 12 samples.

Results

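The genes described here are the small proline-rich proteins (Sprr), the clade B serpins (Serpinb), the S100A calcium-binding proteins (S100a) and the transglutaminases (Tgm), measured in urothelium peeled from mice labelled Stag2-WT or Stag2-KO. They were taken by symbol, as every gene of the deposited tables whose symbol begins with Sprr, Serpinb, S100a or Tgm and a digit. That gave 63 of 23337 genes, with 15 Sprr, 27 Serpinb, 14 S100a and 7 Tgm members. The members, and the gene lists used below, were chosen with earlier results of these data known. The question was whether Stag2-KO urothelium takes on a squamous or stress programme. Stag2 is the gene of a cohesin subunit, and cohesin shapes chromatin loops and pairs sister chromatids. There were 4 groups of 3 libraries: Stag2-WT and Stag2-KO mice, each taken 1 week or 1 month after the first day of TMX feeding (TMX being taken to mean tamoxifen). All animals, WT included, received that diet for 1 week, so the first time point lies at its end. The Cre driver, the strain and the age and sex of the animals are not given in the sources used here. The labels also give a batch number with no word on what it marks, 1 for all libraries of 1 week, 2 for replicates 1 and 2 and 3 for replicate 3 at 1 month. The labels number each library separately, and p-values measure the spread between those libraries.

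Small proline-rich proteins are precursors of the cornified envelope, the cross-linked protein layer beneath the membrane of stratified squamous cells, and transglutaminases join them into it. Clade B serpins act mostly inside cells, where they inhibit proteases of granules and lysosomes, and several are raised in squamous epithelia. S100A proteins bind calcium and then annexins, myosin or other partners, and S100a8 with S100a9 forms calprotectin, which is abundant in neutrophils and in stressed keratinocytes. The lining of the bladder is normally a transitional epithelium with uroplakin-covered umbrella cells, and squamous change is a known response of it to chronic injury.

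The Sprr genes lie in 1 cluster on chromosome 3, between 92215835 and 92500493 on GRCm38, and only some of its members were read in any library. Promoters from RefSeq (GRCm38.p6) were found for 55 of the 63 members, among them 13 Sprr genes, and 4 are shown. Sprr2f, Sprr2e and Sprr2h are genes of 1 subfamily with related upstream sequence and very different levels, and Sprr1a was the most abundant Sprr gene. Each is the 250 bases before the annotated start, 5′ to 3′ on the gene's strand, and capitals mark matches on either strand to AP-1 (TGANTCA), the octamer (ATGCAAAT) and TATAAA. They lie at chr3:92364937-92365186, chr3:92351893-92352142 and chr3:92385435-92385684 on the plus strand and at chr3:92485882-92486131 on the minus strand.
Sprr2f: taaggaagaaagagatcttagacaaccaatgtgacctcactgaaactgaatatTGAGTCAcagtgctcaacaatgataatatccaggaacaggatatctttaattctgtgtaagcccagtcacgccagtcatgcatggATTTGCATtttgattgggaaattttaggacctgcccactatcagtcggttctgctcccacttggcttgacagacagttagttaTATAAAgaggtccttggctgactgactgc
Sprr2e: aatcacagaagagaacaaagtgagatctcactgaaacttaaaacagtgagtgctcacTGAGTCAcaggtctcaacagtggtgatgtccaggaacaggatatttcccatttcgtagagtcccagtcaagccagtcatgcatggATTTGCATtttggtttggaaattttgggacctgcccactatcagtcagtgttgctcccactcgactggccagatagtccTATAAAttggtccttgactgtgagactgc
Sprr2h: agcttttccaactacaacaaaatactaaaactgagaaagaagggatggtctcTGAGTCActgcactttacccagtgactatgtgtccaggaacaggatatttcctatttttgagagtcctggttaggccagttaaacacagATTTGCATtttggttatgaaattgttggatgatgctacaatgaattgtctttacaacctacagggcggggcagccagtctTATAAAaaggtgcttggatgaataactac
Sprr1a: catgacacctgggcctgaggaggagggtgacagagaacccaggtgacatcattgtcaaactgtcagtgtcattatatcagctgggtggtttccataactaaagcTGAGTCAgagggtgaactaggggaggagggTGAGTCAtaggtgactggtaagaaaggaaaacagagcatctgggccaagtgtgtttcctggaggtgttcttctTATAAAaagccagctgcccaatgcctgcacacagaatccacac
In windows of 300 bases that run 50 bases past the start, all 7 Sprr2 promoters outside the Sprr2a pair held all of these motifs, with TATAAA at base -29 in each. Over the 32851 promoters of the table, 7.81% held the AP-1 letters, 1.74% the octamer and 13.6% TATAAA. The promoters of Sprr2f and Sprr2e were 78% identical in a global alignment, and those of Sprr2f and Sprr2h 64%. The Sprr1a promoter was 52% to 55% identical to these, 57% to that of Sprr3 and 54.3% to that of Sprr4. A match is only a run of letters, and Sprr2i and Sprr2k, with 0 counts in every library, held the same motifs as Sprr2f.

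Total counts per library were 5580961 to 9497088, so a floor of 3 counts stands for 0.311 to 0.613 CPM (counts relative to library size, scaled within each time by TMM). Stag2 itself was at 108 to 154 CPM in WT and 61.1 to 76.2 in KO at 1 week, and at 46.4 to 61.9 in WT and 19.3 to 38 in KO at 1 month. The libraries did not overlap at either time, but the difference passed at neither (log2 fold changes -0.89 and -0.88, edgeR adjusted p 0.198 and 0.0507). KO replicate 3 at 1 week stood apart from the rest, with a median Spearman correlation of 0.75 to the libraries of its time, against 0.911 to 0.939 for the others of 1 week. All 3 KO libraries at 1 week held 6392 to 10406 Xist counts and at most 4 counts of 4 Y-linked genes, while the 3 WT libraries held at most 13 and at least 1360. Genotype and the sex read from these genes therefore cannot be told apart at 1 week, while at 1 month KO replicate 3 was the library with Xist (7764 counts). That library had 0 Y-linked counts, while WT replicate 3 at 1 month had 11 Xist and 945 Y-linked counts. Every difference given for batch 3 thus sets 1 library against 1, and genotype and sex cannot be told apart in it.

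Many members of the Sprr, Serpinb and Tgm families had few or no counts in this tissue, while most S100a genes were read. Of the 63 genes, 10 had 0 counts in all 12 libraries and 31, those 10 included, had at most 3 counts in each of them, made up of 9 Sprr, 17 Serpinb, 1 S100a and 4 Tgm genes. The default filter on low counts left 21 members to test at 1 week and 19 at 1 month, and the 19 were all among the 21. Another 11 members had over 3 counts somewhere but were tested at neither time. Together the 63 genes took 1.06% to 1.82% of the counts of a library, and S100a6 alone 0.592% to 1.31%. Reads came from transcript 3′ ends, so counts do not scale with transcript length.

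**Figure D1:**
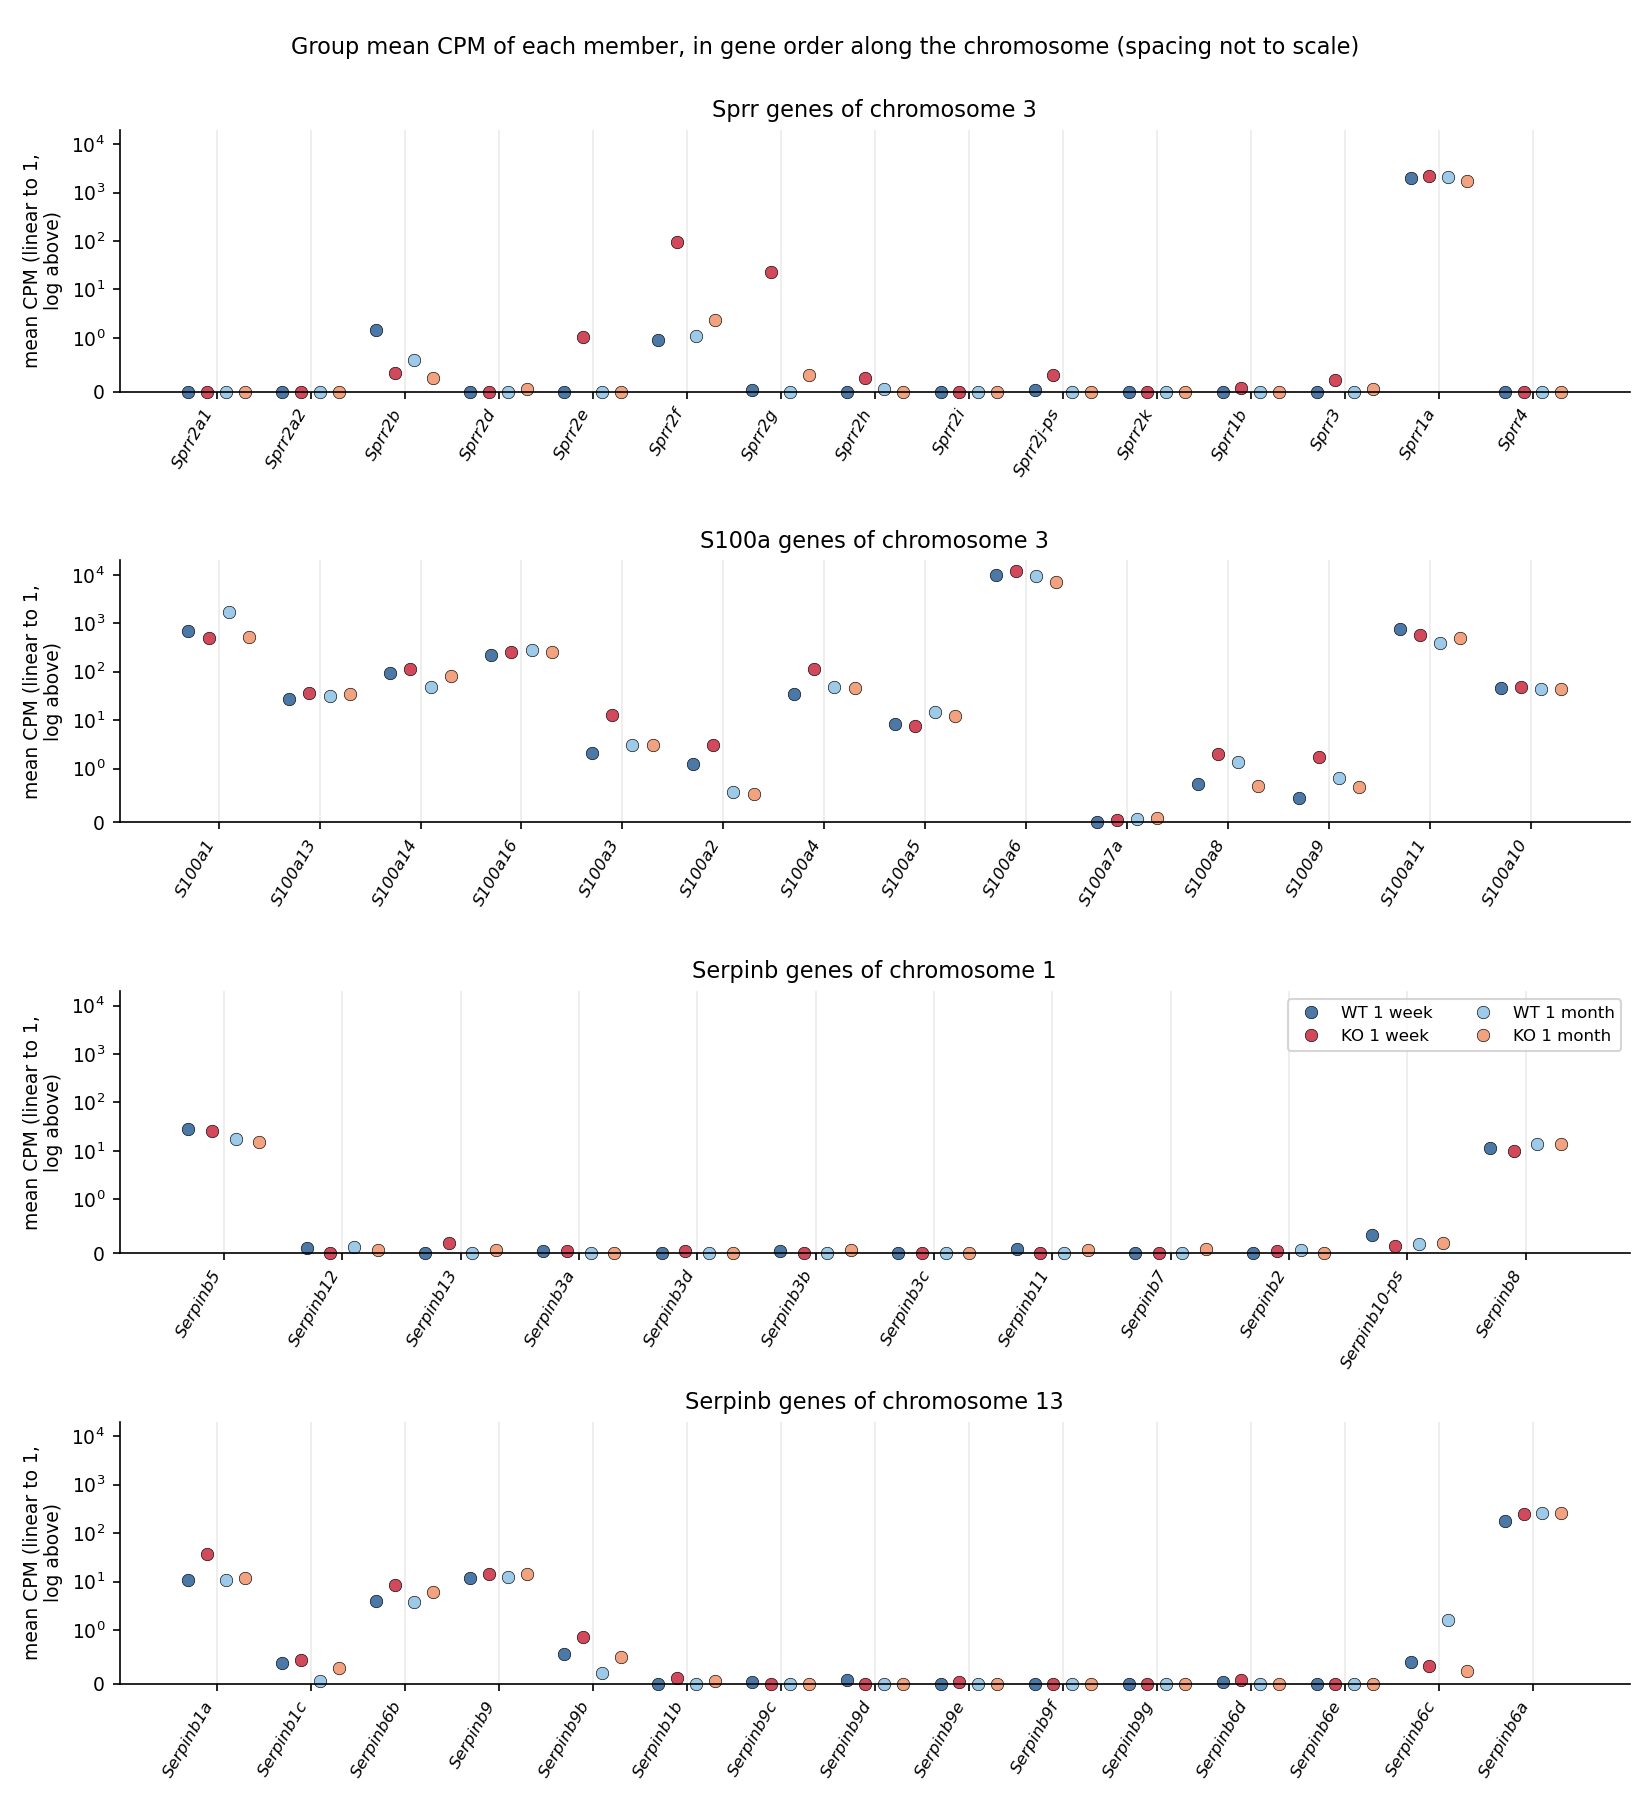
Group mean CPM (vertical axis, linear to 1 and logarithmic above) of each member in gene order, for the Sprr and S100a genes of chromosome 3 and the Serpinb genes of chromosomes 1 and 13, with points for the 4 groups of 3 libraries. Sprr1a stood near 2000 CPM among neighbours at or near 0, Sprr2f and Sprr2g were highest in KO at 1 week, and S100a6 was the most abundant member.

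Sprr1a was the dominant small proline-rich gene, and its genotypes overlapped at both times. It encodes a cornified envelope precursor that is also raised in stressed and regenerating tissue. At 1 week it was at 2010, 2400 and 1710 CPM in WT and at 1830, 3070 and 1630 in KO. At 1 month it was at 2750, 1340 and 2070 CPM in WT and at 2240, 1650 and 1330 in KO. The log2 fold change of KO against WT was 0.10 ± 0.35 (SE) at 1 week and -0.26 ± 0.30 at 1 month, with adjusted p of 0.909 and 0.645 by edgeR's quasi-likelihood test over all genes.

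Sprr2f had the largest difference of any tested member, at 1 week, but missed the threshold. Sprr2f is a cornified envelope precursor known from mouse uterus as an oestrogen-induced gene. Its 1-week WT libraries were at 0.851, 0.584 and 1.45 CPM (7, 5 and 14 counts) and its KO libraries at 27.7, 142 and 115 CPM (205, 1286 and 562 counts). All 3 KO libraries lay far above all WT libraries. The log2 fold change was 6.59 ± 0.77 (SE), a 96.2-fold difference, with an edgeR adjusted p of 0.0506 against the threshold of 0.05. All 3 KO libraries but only 1 WT library reached the 1.21 CPM that the filter on low counts asks of 3 libraries, so Sprr2f was tested because of its KO values. Its test and the alternatives that follow are therefore not given as support. Sprr2f passed in 6 of 13 alternatives, among them DESeq2 (4.97e-17) and no filter on low counts (0.00756). Leaving out KO replicate 1 or KO replicate 3 gave 0.0149 and 0.0153, while leaving out any other library gave 0.115 to 0.465. The estimate stayed between 6.14 and 7.01 on the log2 scale over the 13.

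At 1 month Sprr2f was low in both genotypes, at 1.97, 0.54 and 0.765 CPM in WT and 0.986, 3.52 and 2.43 in KO. These values overlapped, with a log2 fold change of 1.09 ± 0.66 (SE) and an edgeR adjusted p of 0.364. The change of the genotype difference from 1 week to 1 month, tested as an interaction over all 12 libraries, was -5.50 ± 1.09 (SE) on the log2 scale with an edgeR adjusted p of 0.0879. That term passed in 5 of 20 alternatives.

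Sprr2g, the next gene downstream of Sprr2f (7472 bases apart), was also highest in KO replicates 2 and 3 at 1 week. RefSeq lists it as a transcribed pseudogene. Its 1-week counts were 0, 0 and 1 in the WT libraries and 5, 255 and 188 in the KO libraries, a KO to WT ratio of 555 per scaled count with a 95% counting interval of 99.1 to 22000. That interval covers counting error alone. It did not pass the filter on low counts, and without a filter its edgeR adjusted p was 0.0622. Without KO replicate 1 it passed the filter, through the KO libraries, and was called, with a log2 fold change of 9.28 and an adjusted p of 0.0199. That call is likewise not given as support. Sprr2e, the next gene upstream of Sprr2f, had 15 counts at 1 week, all in KO replicate 3, and 0 in WT, at least 6.19-fold higher in KO against a floor of 3 counts over the WT group. Sprr2e was chosen for mention after its values were seen. None of the 50-base words in the last 400 bases of Sprr2f or Sprr2g occurs in another annotated gene (GENCODE M21).

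The rest of the Sprr cluster was at or near the floor. Sprr2a1, Sprr2a2, Sprr2i, Sprr2k and Sprr4 had 0 counts in all 12 libraries, and Sprr1b and Sprr3, which mark squamous epithelium elsewhere, had at most 2. Sprr2d, Sprr2h and Sprr2j-ps had at most 7. Sprr2b, which had at most 26 counts in a library, was at 0.415 to 3.04 CPM in WT and 0 to 0.883 in KO at 1 week, so the genotypes overlapped. Sprr2a1 and Sprr2a2 are near-identical at their ends, and their reads could be lost between the copies.

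**Figure D2:**
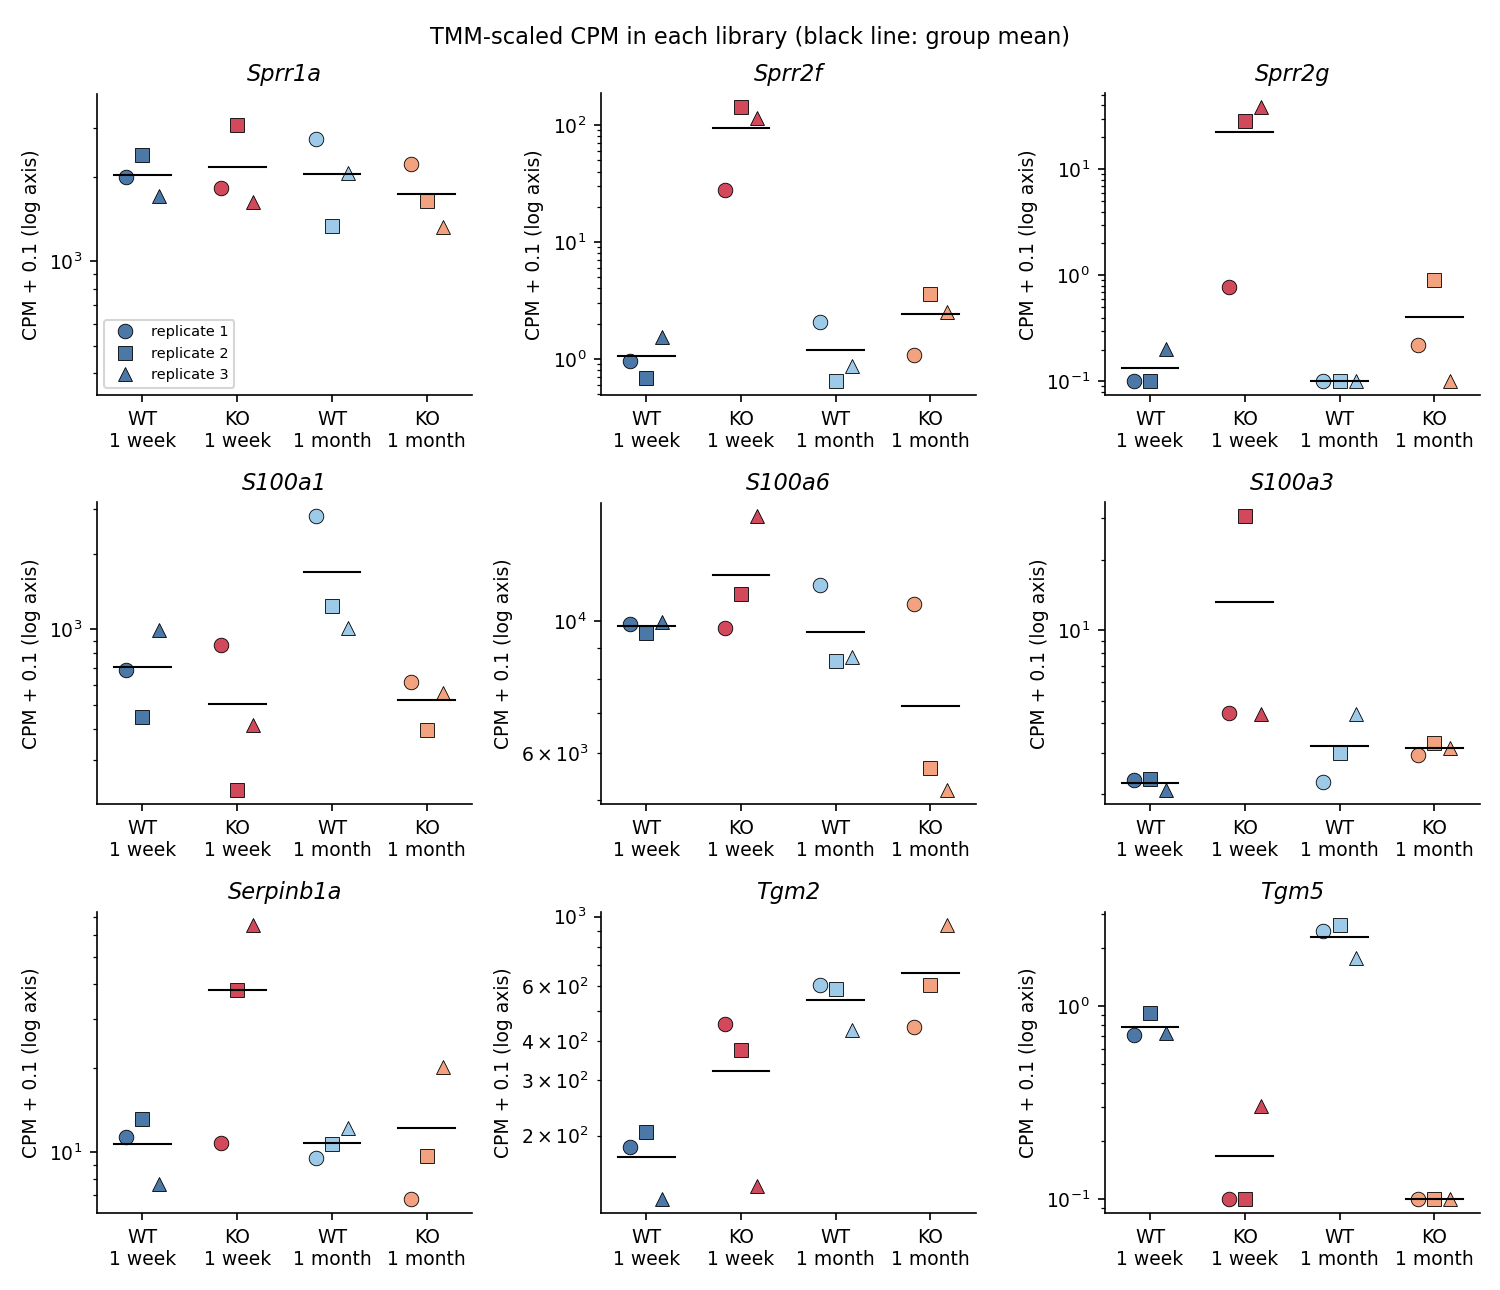
TMM-scaled CPM plus 0.1 on a log axis in each of the 12 libraries for 9 members, with the replicate shown by shape, the group by colour and the group mean by a line. Sprr2f and Sprr2g were high in KO at 1 week, S100a1 was lower in all 3 KO libraries at 1 month, and Tgm5 was at 0 in KO at 1 month.

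S100a genes were the most widely read family, with 12 of 14 tested at 1 week and 10 at 1 month. S100a6 (calcyclin), which binds annexins, was the most abundant member, with 9900, 9560 and 9970 CPM in WT and 9720, 11100 and 15000 in KO at 1 week. At 1 month it was at 11500, 8570 and 8690 CPM in WT and 10700, 5660 and 5190 in KO. The genotypes overlapped at each time, with log2 fold changes of 0.29 ± 0.31 and -0.45 ± 0.32 (SE) and edgeR adjusted p of 0.669 and 0.436.

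S100a1 was the member that passed the test, and it fell in KO at 1 month. S100a1 is a calcium sensor best known from heart and skeletal muscle. The 1-month WT libraries were at 2820, 1240 and 1010 CPM and the KO libraries at 613, 396 and 557, so every KO library lay below every WT library. The log2 fold change was -1.63 ± 0.36 (SE), 3.09-fold higher in WT, with an edgeR adjusted p of 0.0421. Within batch 2 (replicates 1 and 2) the difference was -1.92. Within batch 3 (replicate 3) it was -0.86, from 1 library a genotype that also differed in the sex read from Xist and Y-linked genes. The call was lost without WT replicate 1 (-1.11, adjusted p 0.0905), WT replicate 2 (0.0678), KO replicate 1 (0.137) or KO replicate 2 (0.167), with no batch covariate (0.385) and with all 12 libraries in 1 fit (0.474).

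At 1 week S100a1 was at 685, 447 and 994 CPM in WT and 863, 227 and 413 in KO, which overlapped. Its log2 fold change there was -0.50 ± 0.53 (SE) with an edgeR adjusted p of 0.665, and the interaction of genotype with time was -1.11 with an adjusted p of 0.397. The start site used for the S100a13 promoter lies 105 bases from that of S100a1 on the opposite strand, although the annotated genes overlap. S100a13 was at 24.8 to 39.9 CPM in WT and 27.2 to 46.7 in the KO libraries at 1 month. Its log2 fold change was 0.13 ± 0.22 (SE), with an edgeR adjusted p of 0.756.

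S100a14, a member of epithelial tissues, was at 39.2, 35.3 and 73.4 CPM in WT and 62.9, 88.7 and 92.5 in the KO libraries at 1 month. The fitted difference was 0.79 ± 0.23 (SE) on the log2 scale, its edgeR adjusted p was 0.0836, with 1.00 in batch 2 and 0.33 in batch 3, and it passed in 6 of 15 alternatives. S100a11, an annexin A1 partner in cornifying cells, was at 229, 297 and 676 CPM in WT and 505, 504 and 463 in the KO libraries at 1 month. Its difference had opposite signs in the batches, 0.95 in batch 2 and -0.55 in batch 3, and the combined value of 0.45 ± 0.29 (SE) had an edgeR adjusted p of 0.398. Part of its 3′ end (43.6% of 50-base words) is shared with annotated copies, so its reads could be split.

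S100a3 and S100a4 were high in a single KO library at 1 week. S100a3, known from the hair cuticle, was at 2.19, 2.22 and 1.97 CPM in WT and 4.32, 30.5 and 4.29 in KO. Its genotypes did not overlap, and the fitted difference was 2.62 ± 0.84 (SE) on the log2 scale (edgeR adjusted p 0.217), or 0.98 without KO replicate 2. S100a4, a myosin-binding protein of fibroblasts and motile cells, was at 39, 39.7 and 27.8 CPM in WT and 54.3, 257 and 26.4 in KO. Its fitted difference of 1.67 ± 0.78 (SE, log2 scale, edgeR adjusted p 0.363) became 0.15 without KO replicate 2, and 54.4% of the 50-base words of its 3′ end are shared with Gm42674. At 1 month the log2 fold changes were -0.01 and -0.14, and the genotypes overlapped for both genes.

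The calprotectin genes and their epidermal relatives were close to the floor. S100a8 had at most 20 counts and S100a9 at most 15 in any library, and S100a7a, the mouse psoriasin relative, at most 2. S100a2, a squamous and basal-cell member, had at most 33 counts, with 1.82, 1.63 and 0.311 CPM in WT and 0.27, 3.64 and 5.52 in KO at 1 week. S100a5 was at 7.77 to 8.39 CPM in WT and 4.91 to 9.61 in KO at 1 week, and S100a10, the annexin A2 partner, at 37.8 to 56.5 and 24.9 to 83.7. S100a16 was at 202 to 245 CPM in WT and 159 to 337 in KO at 1 week. None of these S100a genes passed the test at either time where they were tested.

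Of the 27 Serpinb genes, 6 were tested, and the other 21 had at most 24 counts in any library. On chromosome 13 these were Serpinb1a, Serpinb6a, Serpinb6b and Serpinb9 among 15 genes, and on chromosome 1 Serpinb5 and Serpinb8 among 12. The squamous cell carcinoma antigen relatives Serpinb3a, Serpinb3b, Serpinb3c and Serpinb3d and the stress-induced Serpinb2 had at most 1 count in a library. Serpinb6a, an inhibitor of trypsin-like proteases and the most abundant serpin here, was at 193, 189 and 145 CPM in WT and 254, 359 and 144 in KO at 1 week, which overlapped. Its log2 fold changes were 0.52 ± 0.37 (SE) at 1 week and -0.05 ± 0.20 at 1 month, with edgeR adjusted p of 0.525 and 0.897.

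Serpinb1a, an inhibitor of neutrophil elastase and cathepsin G, was at 11.2, 13 and 7.57 CPM in WT and 10.7, 38 and 65.2 in KO at 1 week. KO replicates 2 and 3 were high and KO replicate 1 was within the WT range. Its log2 fold change was 1.84 ± 0.62 (SE), with an edgeR adjusted p of 0.236, and at 1 month it was 0.06 ± 0.32. Serpinb6b was at 4.13, 4.2 and 3.84 CPM in WT and 7.83, 11.6 and 6.13 in KO at 1 week, with no overlap. The fitted difference was 1.07 ± 0.40 (SE) on the log2 scale with an edgeR adjusted p of 0.269, and the value at 1 month was 0.70 ± 0.38 with an adjusted p of 0.304. Serpinb5 (maspin), an epithelial serpin, was at 27.3, 34.8 and 20.9 CPM in WT and 15, 53.8 and 9.81 in KO at 1 week, and its log2 fold changes of -0.07 and -0.20 had edgeR adjusted p of 0.967 and 0.679.

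Among the transglutaminases only Tgm2 was abundant, and the epidermal enzymes were at or near the floor. Tgm2, the tissue transglutaminase found in stroma, endothelium and epithelia, was at 184, 205 and 125 CPM in WT and 453, 374 and 138 in KO at 1 week. KO replicate 3 lay within the WT range, and the fitted difference was 0.91 ± 0.46 (SE) on the log2 scale, with an edgeR adjusted p of 0.395. At 1 month the difference was 0.24 ± 0.28, with -0.20 in batch 2 and 1.11 in batch 3 and an edgeR adjusted p of 0.648. Tgm1, the main cross-linker of the cornified envelope, had at most 3 counts in any library and Tgm3 at most 8.

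Tgm5, an epidermal transglutaminase, was low but read in every WT library. Its 1-week counts were 5, 7 and 6 in WT libraries against 0, 0 and 1 in KO libraries. At 1 month they were 12, 14 and 11 in WT against 0, 0 and 0 in KO. The WT to KO ratio was 14.5 at 1 week, with a 95% counting interval of 2.29 to 606, and WT was at least 15-fold higher at 1 month against a floor of 3 counts over the KO group. Tgm5 did not pass the filter at either time, and without a filter its edgeR adjusted p was 0.325 at 1 week and 8.56e-05 at 1 month. Over all 12 libraries it passed the filter, through its WT libraries, and the interaction had an edgeR adjusted p of 0.34. These tests of Tgm5 are not given as support.

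**Figure D3:**
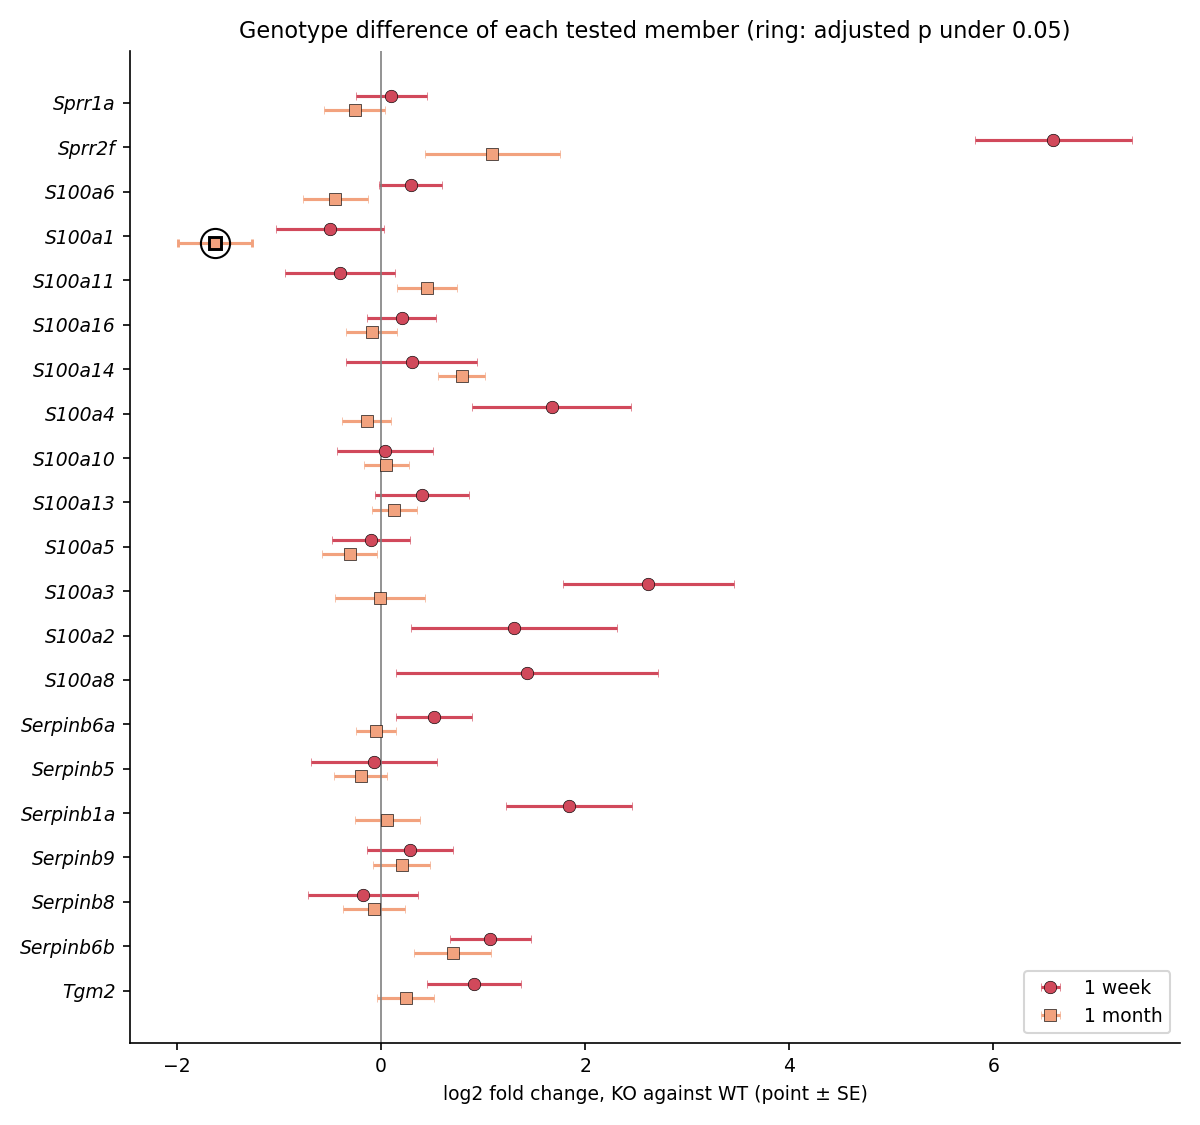
Log2 fold change of KO against WT (horizontal axis, point ± SE) of each tested member, by family, at 1 week (circles) and 1 month (squares), from 3 libraries a genotype. S100a1 at 1 month carries the ring of an adjusted p under 0.05, and Sprr2f at 1 week (6.59) lies apart from the rest.

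Counted over the families, 0 of 21 members passed the edgeR test at 1 week, where 8 of 12754 genes (0.0627%) passed, 0.0157% higher and 0.047% lower in KO. At an unadjusted p under 0.05 there were 4 members, against 15.5% of all genes. DESeq2 called 2 members, Sprr2f and S100a3, against 7.52% of all genes. The genotypes did not overlap for 3 of the 21, all higher in KO, against 26.5% of all genes, 14.1% higher and 12.5% lower in KO. Among untested members Sprr2g was higher and Tgm5 lower in KO without overlap. Sprr3 did not overlap either, but its counts of 0, 0 and 0 in WT and 1, 1 and 2 in KO lie under the floor of 3. The share of untested genes without overlap was not computed at either time. Of the 21 members, 16 had higher values in KO (76.2%, against 51.5% of all genes), with a median log2 fold change of 0.30 against 0.02. Sprr2f, tested because of its KO values, is among the 4, the 2, the 3 and the 16. Those member counts are therefore not given as support.

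At 1 month 1 of 19 members passed, the lower S100a1, where 269 of 12139 genes (2.22%) passed, 0.997% higher and 1.22% lower in KO. At an unadjusted p under 0.05 there were 2 of the 19, against 21.5% of all genes, and DESeq2 called 2, S100a1 and S100a14, against 6.98%. Of the 19 tested members, S100a1 alone had no overlap, against 13.3% of all genes, 5.72% higher and 7.58% lower in KO. Untested Serpinb6c (2, 5 and 24 counts in WT, 2, 2 and 1 in KO) and Tgm5 were also lower in KO without overlap. The median log2 fold change of the 19 was -0.01, as it was over all genes. In the interaction 0 of 23 members passed, as did 0 of 13122 genes (0%) by edgeR. At an unadjusted p under 0.05 there were 3 members and 2611 genes (19.9%), and DESeq2 called 1 member and 917 genes (7%). Sprr2f is among the 3 and is the 1 called by DESeq2, and those counts are likewise not given as support.

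A list of squamous genes outside the 4 families was read in part. Of its 53 genes, 28 had over 10 counts in some library, among them involucrin (Ivl), at 218 to 253 CPM in WT at 1 week, and 20 had at most 3 counts in every library, while Krt16, Krt77, Crct1, Lce1a2, Lce3a and Lce3c had 0. At 1 week 0 of 22 tested genes passed, with 12 at an unadjusted p under 0.05 (15.5% of all genes) and a median log2 fold change of 0.33 (0.02 over all genes). The genotypes did not overlap for 5 higher and 4 lower genes, 40.9% against 26.5% of all genes. Krt6a, a keratin of wounded and squamous epithelium, was at 0 in all WT libraries, while its KO libraries held 20, 398 and 103 counts at 1 week. It was at least 215-fold higher in KO against a floor of 3 counts over the WT group. It passed the filter through its KO libraries alone, so its test is not given as support. The 12 genes and the 5 higher genes above include Krt6a. Krt1, a keratin of suprabasal epidermis, had lower values in all KO libraries, at 2.19, 3.97 and 5.91 CPM in WT and 0.81, 0.221 and 0.613 in KO. It passed the filter through its WT libraries alone, and it is among the 12 genes and the 4 lower genes. Krt14, a basal keratin chosen after its values were seen, was at 0.486, 0.584 and 2.8 CPM in WT and 2.3, 44.4 and 186 in KO at 1 week, with overlap. Krt14 is also among the 12 genes, and 3 KO libraries but only 1 WT library reached the CPM of the filter. The list counts therefore hold genes tested because of 1 genotype and are not given as support.

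At 1 month 1 of 20 tested squamous genes passed, against 2.22% of all genes. This was Klk8, a skin protease, which fell from 19.5, 12.4 and 13 CPM in WT to 6.16, 4.47 and 4.41 in KO, with a log2 fold change of -1.57 ± 0.32 (SE) and an edgeR adjusted p of 0.0302. The call was lost without WT replicate 1 or 2 or KO replicate 1 or 2 (0.0733 to 0.126), with no batch covariate (0.33) and with all 12 libraries in 1 fit (0.474). Krt6a had at most 2 counts in any library at that time. The median log2 fold change of the 20 genes was -0.28.

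Genes of injured or inflamed epithelium gave 0 calls among 16 tested of 35 at 1 week, with a median log2 fold change of 1.66 and 11 at an unadjusted p under 0.05 (15.5% of all genes). The genotypes did not overlap for 8 higher and 2 lower genes, 62.5% against 26.5% of all genes. Il1rn, the interleukin-1 receptor antagonist, was at 6.32, 9.11 and 7.57 CPM in WT and 26.6, 37.9 and 86.1 in KO, with an edgeR adjusted p of 0.0997. Ereg, an epidermal growth factor receptor ligand, was at 1.34, 0.817 and 0.311 CPM in WT and 3.38, 32.4 and 38.4 in KO, with only 1 WT library at the CPM of the filter. Ereg and Krt6a, both tested because of their KO values, are among the 11 genes and the 8 higher genes. Those counts are therefore not given as support. From the same 16 filtered genes DESeq2 called 10 at 1 week, against 7.52% of all genes, and that count is likewise not given as support. At 1 month 2 of 11 tested genes passed, both lower in KO, against 2.22% of all genes passing and 1.22% passing as lower. Defb1, an antimicrobial peptide, fell from 73.8, 31.3 and 21.9 CPM to 8.63, 7.83 and 5.02 (log2 fold change -2.50 ± 0.33 SE, edgeR adjusted p 0.00344). Il33, an alarmin, fell from 18.1, 23 and 14.2 CPM to 7.77, 8.95 and 5.48 (-1.32 ± 0.27 SE, edgeR adjusted p 0.0302). The Defb1 call was lost with no batch covariate (0.221) and with all 12 libraries in 1 fit (0.0851). The Il33 call was lost in the same settings (0.385 and 0.553), by library size alone (0.0518) and without WT replicate 1 or 2 or KO replicate 1 or 2 (0.0645 to 0.172). At 1 week Il33 was at 15.2, 21.6 and 20.7 CPM in WT and 26.5, 264 and 89.1 in KO, with an edgeR adjusted p of 0.172.

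Binding partners and target proteases of the families gave 0 calls among 24 tested of 32 at 1 week and 1 of 22 at 1 month, which was Klk8 again. Over all genes 0.0627% passed at 1 week and 2.22% at 1 month. S100b, a relative outside the S100a group, was at 3.04, 2.92 and 2.18 CPM in WT and 11.3, 19.8 and 42.1 in KO at 1 week, and Fn1 (fibronectin) at 55.2, 49.6 and 42.7 in WT and 141, 210 and 482 in KO. Their edgeR adjusted p were 0.0937 and 0.109. The partner list had a median log2 fold change of 0.35 at 1 week and -0.06 at 1 month.

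Summed levels of fibroblast, muscle and endothelial markers were separated by genotype at 1 week, narrowly for fibroblasts, although none of these markers passed the test. In WT and KO the summed level of 13 fibroblast markers was 3890 to 6210 and 6220 to 11200 CPM, that of 9 smooth muscle markers 166 to 367 and 423 to 1150, and that of 8 endothelial markers 191 to 233 and 332 to 572. All 13 fibroblast, 7 of 9 muscle and 8 of 8 endothelial markers had higher values in KO, against 51.5% of all genes, and 7, 3 and 4 did so without overlap, against 14.1%. The 6 Schwann cell markers summed to 850 to 1620 CPM in WT and 171 to 356 in KO. Uchl1 made up most of the WT sum, at 954, 741 and 1530 CPM in WT and 252, 44.9 and 56.2 in KO. Of the 6 markers, 4 had higher and 2 lower values in KO, so the lower sum does not describe the list as a whole. The 18 urothelial markers in the tables were read in the libraries, with sums of 14400 to 17700 CPM in WT and 13900 to 18900 in KO. Neutrophil markers were at 57.5 to 73.4 CPM in WT and 28.4 to 63.2 in KO at 1 week, with Ngp and Elane at 0 in all 12 libraries. Cxcr2 and Padi4 made up most of those sums, and of 4 tested neutrophil markers 2 had higher and 2 lower values in KO. Macrophage sums overlapped, at 411 to 655 CPM in WT and 577 to 734 in KO. Lymphocyte sums (26 to 34.6 and 35.1 to 66.4) and mast cell sums (3.52 to 3.97 and 8.94 to 21.5) were higher in KO without overlap. Ptprc made up most of the lymphocyte sums, at 25, 18.6 and 22 CPM in WT and 31.2, 32 and 57 in KO. Of 3 tested lymphocyte markers, 2 had higher and 1 lower values in KO, so the higher sum does not describe that list as a whole. The part of these marker differences in the member values at 1 week was not tested.

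At 1 month the macrophage markers were at 1670 to 2070 CPM in WT and 601 to 1060 in KO, with 5 of 13 tested genes called lower, against 1.22% of all genes. The urothelial markers summed to 20100 to 34700 CPM in WT and 14600 to 19800 in KO, with 1 of 18 called lower. Of the 18, 14 had lower and 4 higher values in KO, so the lower sum does not describe every marker. Krt5 was higher without overlap, at 112, 206 and 505 CPM in WT and 604, 617 and 674 in KO (edgeR adjusted p 0.0505). Fibroblast markers were at 10700 to 15300 CPM in WT and 8700 to 10500 in KO (1 of 13 called, higher). Schwann cell markers summed to 1220 to 2840 CPM in WT and 238 to 837 in KO (1 of 6 called, the lower Uchl1). Uchl1 made up most of that sum, at 2720, 1640 and 1120 CPM in WT and 740, 251 and 134 in KO. Of the 6 Schwann cell markers, 3 had higher and 3 lower values in KO. Endothelial markers were higher, at 195 to 239 CPM in WT and 269 to 441 in KO (1 of 8 called, the higher Plvap). Smooth muscle markers overlapped, at 198 to 1060 and 195 to 493 CPM (1 of 9 called lower). Over all genes 0.997% were called higher and 1.22% lower at 1 month. In bulk tissue fewer cells of a type and less RNA per cell cannot be told apart, and the part of these shifts in the S100a1 value was not tested. Epidermal markers, which would mark skin in the peel, summed to 4.42 to 14.8 CPM over all libraries.

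**Figure D4:**
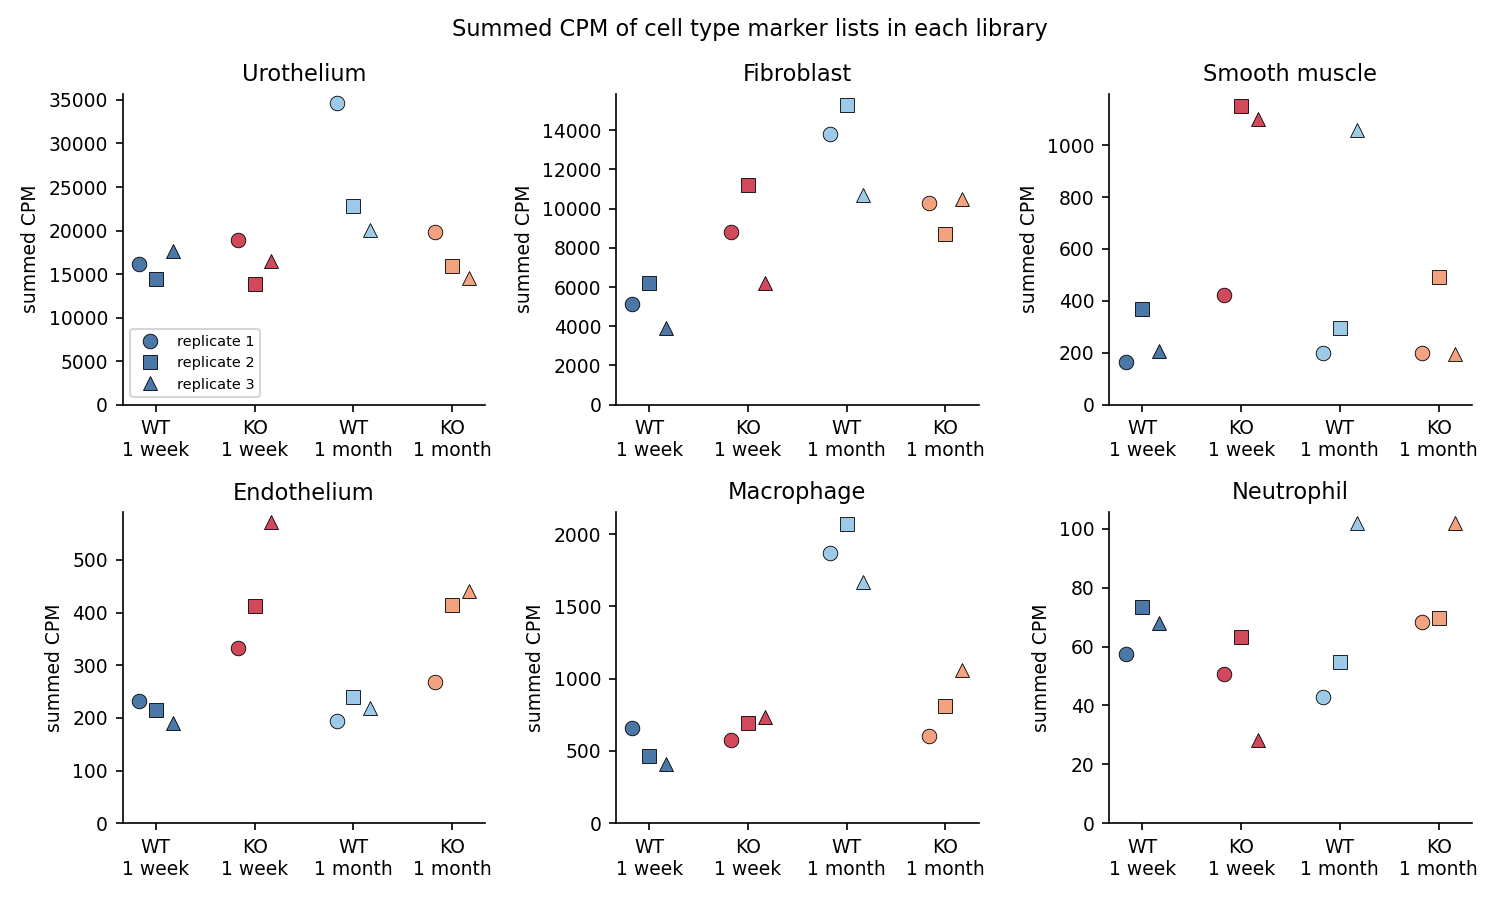
Summed CPM (vertical axis, linear from 0) of 6 marker lists in each of the 12 libraries, with the replicate shown by shape and the group by colour. Fibroblast, smooth muscle and endothelial sums were higher in all KO than in all WT libraries at 1 week, and macrophage sums were lower in all KO libraries at 1 month.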

How the data were processed

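RNA of peeled mouse urothelium in 12 libraries was read at transcript 3′ ends with a stranded oligo-dT kit (QuantSeq forward), per the labels' protocols. The authors deposited raw counts per gene, 1 table a time. The submitters' processing notes name TopHat, Bowtie, HTSeq and DESeq2 and the build mm10, without versions. The annotation and read length are not given in the sources used here. The WT replicate 3 column at 1 month was matched through its library name, since its title carries another number. Replicates were numbered in accession order and no replicate pair agreed within sampling noise.

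edgeR 4.0.16 (R 4.3.3) quasi-likelihood fits with TMM, filterByExpr and robust dispersions used 6 libraries a time, with batch as covariate at 1 month. The interaction used all 12. Two-sided p-values were adjusted over all genes by Benjamini-Hochberg (threshold 0.05), and SE is the absolute log2 fold change over the square root of F. Steps were tested on simulated data. DESeq2 1.42.0 was an alternative. Members and lists were chosen with earlier results of these data known. Values are given for called members, the 3 most abundant of each family, up to 8 members with the smallest p at each time, and up to 3 called genes a list (otherwise the 2 with the smallest p). Other members named follow no rule.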

Additional observations from a re-analysis of the deposited data

How the results depend on the processing

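Depth limits the low genes, since 3 counts stand for up to 0.613 CPM. No paired analysis was possible because replicate numbers were given in accession order and pair no animals. Over 34 gene results and 487 alternatives, 420 kept direction and side of the threshold, 21 lost a call (S100a1, Klk8, Defb1 and Il33 at 1 month), 21 gained one and 25 changed sign, and the cause was not tested.

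At 1 week the count of called genes (8) was 62 with no filter, 957 with DESeq2, 553 with all 12 libraries in 1 fit and 0 to 320 leaving out a library. Members (0) were 1, 2 and 1 in the same settings, 1 without robust dispersions and 0 to 2 leaving out a library (Sprr2f and Sprr2g without KO replicate 1). Squamous genes (0) were 5 with DESeq2 and 4 with all 12 libraries, and 0 to 0 leaving out a library. Injury genes (0) were 10 and 8, and 0 to 2. Partner genes (0) were 1 with no filter, 6 with DESeq2 and 3 with all 12 libraries, and 0 to 2.

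At 1 month the count of called genes (269) was 561 by library size alone, 1276 with no filter, 781 with DESeq2, 1474 in batch 2 alone and 45 to 1522 leaving out a library. Higher genes were 121 of the 269 and 456 of the 561 by library size alone. In the same order members (1) were 2, 3, 2, 4 and 0 to 4, squamous genes (1) were 5 with no filter, 2 with DESeq2, 7 in batch 2 and 0 to 7, and partner genes (1) were 3, 7, 4, 5 and 0 to 5. Injury genes (2) were 1 by library size alone and 1 to 2 leaving out a library. All of these counts were 0 with no batch covariate and 0 with all 12 libraries in 1 fit. In batch 2 alone the 4 members were S100a1, S100a11, S100a14 and Tgm5. Tgm5 passed the filter there through its WT libraries, so its call is not given as support.

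In the interaction the count of called genes (0) was 137 with no filter, 917 with DESeq2, 15 in batch 2 alone and 0 to 440 leaving out a library. Members (0) were 1 with no filter and 1 with DESeq2, Sprr2f each time, and 0 to 1 leaving out a library.

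Signs changed for small differences. Library size alone moved the median log2 fold change of all genes by 0.22 at 1 month and by 0.25 in the interaction, so its values are read against that shift. At 1 month library size alone gave log2 fold changes of 0.20 for S100a3, 0.09 for S100a4, 0.03 for Serpinb5 and 0.17 for Serpinb6a. No filter gave 0.03 for S100a3, and batch 2 alone gave 0.25 for S100a3, -0.31 for Serpinb1a and -0.18 for Tgm2. Leaving out a library gave ranges at 1 week of -0.56 to 0.73 for S100a14, -0.35 to 0.08 for S100a5, -1.19 to 0.29 for Serpinb5 and -0.27 to 0.23 for Sprr1a, and at 1 month of -0.19 to 0.25 for S100a3, -0.44 to 0.12 for S100a4, -0.31 to 0.34 for Serpinb1a, -0.56 to 0.02 for Sprr1a and -0.19 to 0.55 for Tgm2.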
